A study of Homo sapiens with 8 samples.

Results

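Krüppel-like factors (KLFs) are zinc-finger transcription factors, and the H3K27ac landscape of 10 of their genes was examined in human pancreatic progenitors (PPs) expanded with or without the BET inhibitor I-BET151. The 10 genes, KLF2, KLF3, KLF4, KLF5, KLF6, KLF7, KLF10, KLF11, KLF13 and KLF16, are 10 of the 20007 protein-coding genes of GENCODE release 44. They were listed by name and not by a cut on measured values, but with earlier results of these data known. For each gene, every H3K27ac peak that overlapped the gene body or the 50 kb on either side of it was taken from the peak list of each library. The PPs came from MEL1, an established line of human embryonic stem cells with a GFP reporter at INS. All cells were grown in EF6, a medium with B27, EGF, bFGF and 616452, an inhibitor of the TGF-β receptor. They received either DMSO, the solvent, or 1 μM I-BET151 for 7 days. There were 2 H3K27ac ChIP-seq libraries per group, and the 4 matching input libraries have no values of their own here. The labels number the libraries 1 and 2 within each group without saying whether they came from separate cultures, so the spread between them may be technical.

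KLF proteins bind GC-rich promoters and enhancers through zinc fingers at their C terminus, most often at the word CACCC, and the SP proteins, their closest relatives, bind the GC box GGGCGG. The N terminus sets what each factor does. KLF2, KLF4, KLF5, KLF6 and KLF7 mostly act as activators with the acetyltransferases EP300 and CREBBP, KLF3 acts mostly as a repressor through CTBP proteins, and KLF10, KLF11, KLF13 and KLF16 recruit the SIN3A corepressor with its histone deacetylases. H3K27ac is placed by EP300 and CREBBP at active promoters and enhancers, and BET proteins dock on acetylated lysines, which I-BET151 prevents. In the pancreas, KLF11 is known as a regulator of insulin transcription, and KLF4 and KLF5 are known for their roles in pluripotent and epithelial cells.

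The sequences under 6 of these H3K27ac peaks are shown because the comparisons that follow turn on them. For KLF5, KLF6, KLF7 and KLF3 they are centred on the summit of the best-ranked promoter peak, and for KLF13 and KLF16 on an intronic peak that was called in both DMSO lists but in no I-BET151 list. They were read from hg38 in the direction of each gene, with annotated untranslated sequence left out, and capitals mark CACCC or GGGCGG on either strand. KLF5 lies on the plus strand at chr13:73059369-73059668, with its summit in a coding exon. KLF6 lies on the minus strand at chr10:3785622-3785921, upstream of the gene. KLF7 lies on the minus strand at chr2:207166493-207166756, in an intron of the longest transcripts. KLF3 lies on the plus strand at chr4:38663224-38663523, upstream of the gene. KLF13 lies on the plus strand at chr15:31398368-31398667, and KLF16 on the minus strand at chr19:1857527-1857826, each in an intron of its own gene.
KLF5: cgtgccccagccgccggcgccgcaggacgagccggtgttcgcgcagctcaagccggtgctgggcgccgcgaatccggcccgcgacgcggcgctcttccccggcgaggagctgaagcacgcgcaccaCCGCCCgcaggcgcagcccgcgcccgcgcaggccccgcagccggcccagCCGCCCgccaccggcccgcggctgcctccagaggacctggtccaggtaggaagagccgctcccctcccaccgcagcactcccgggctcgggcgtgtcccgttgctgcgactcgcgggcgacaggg
KLF6: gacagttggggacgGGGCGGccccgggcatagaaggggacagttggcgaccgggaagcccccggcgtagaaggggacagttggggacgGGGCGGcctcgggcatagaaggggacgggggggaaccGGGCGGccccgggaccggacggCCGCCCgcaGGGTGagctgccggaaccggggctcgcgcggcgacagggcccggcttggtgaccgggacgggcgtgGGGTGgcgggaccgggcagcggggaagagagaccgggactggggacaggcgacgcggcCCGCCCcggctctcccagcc
KLF7: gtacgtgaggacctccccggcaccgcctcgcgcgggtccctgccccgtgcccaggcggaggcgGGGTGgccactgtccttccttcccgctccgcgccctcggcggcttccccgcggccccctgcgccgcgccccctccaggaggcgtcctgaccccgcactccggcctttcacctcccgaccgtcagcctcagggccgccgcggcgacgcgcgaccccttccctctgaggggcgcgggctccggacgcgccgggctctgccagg
KLF3: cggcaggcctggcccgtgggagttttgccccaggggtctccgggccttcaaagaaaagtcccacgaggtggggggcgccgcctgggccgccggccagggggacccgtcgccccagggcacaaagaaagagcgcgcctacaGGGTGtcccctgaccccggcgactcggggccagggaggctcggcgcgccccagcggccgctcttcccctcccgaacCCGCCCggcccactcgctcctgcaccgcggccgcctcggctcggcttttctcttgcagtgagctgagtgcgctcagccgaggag
KLF13: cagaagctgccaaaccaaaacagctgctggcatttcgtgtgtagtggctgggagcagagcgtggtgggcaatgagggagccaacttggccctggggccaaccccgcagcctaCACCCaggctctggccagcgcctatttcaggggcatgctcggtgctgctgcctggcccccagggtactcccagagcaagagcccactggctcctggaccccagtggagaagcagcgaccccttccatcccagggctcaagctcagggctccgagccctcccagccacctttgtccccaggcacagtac
KLF16: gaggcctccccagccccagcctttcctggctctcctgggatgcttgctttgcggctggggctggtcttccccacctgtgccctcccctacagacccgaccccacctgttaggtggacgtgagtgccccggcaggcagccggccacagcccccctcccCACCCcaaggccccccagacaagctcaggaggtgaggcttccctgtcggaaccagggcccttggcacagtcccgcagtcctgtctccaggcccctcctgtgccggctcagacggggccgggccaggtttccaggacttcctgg

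The promoter windows were GC-rich, and their KLF/SP words varied in number. GC content was 78.7% in the KLF5 sequence, 77.3% in KLF6, 78.8% in KLF7 and 73.3% in KLF3, and 64.3% and 69.3% in the intronic KLF13 and KLF16 sequences. The KLF6 sequence had the most words of the 6, with 5 GC boxes and 2 CACCC words. The intronic KLF13 and KLF16 sequences had 1 CACCC word each and 0 GC boxes. Around the summits of all 26 regions in the KLF windows, in 300 bp each, CACCC was found in 16 (61.5%) against 74.4% of all 15752 regions of the series, and GGGCGG in 16 (61.5%) against 64.7%. Among the 11 regions at the genes' own promoters that were called in every library, GGGCGG was in 10 (90.9%) and CACCC in 7 (63.6%), against 71.5% and 73.0% of the 10317 regions of the series called in every library. The CREB word TGACGTCA and the AP-1 word TGANTCA were in 0 of the 26 windows, and they were in 0.495% and 3.68% of all regions. Both strands were searched, and a CACCC word and a GC box may share letters. These are word counts in fixed windows and say nothing about binding. Promoters without a peak were also GC-rich. In the RefSeq promoters (GRCh38.p14, 250 bases before to 50 after a start), GC content was 80.7% for KLF2 and 69.0% for KLF4, with 6 and 4 GC boxes, against a median of 58.7% over 35116 promoters, of which 45.0% held a GC box.

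The 4 peak lists differed in depth, with DMSO replicate 2 the deepest, and the I-BET151 lists were shorter. They held 13606 and 14248 peaks in DMSO and 12887 and 12312 in I-BET151, over 7.76 to 9.84 M ChIP reads and 2.67 to 3.04 M input reads per library, as recovered from the fold and significance of each peak (M is the prefix mega). Summit heights are given as RPM, the ChIP reads piled up at a summit per 1 M ChIP reads of the library. A shorter list covers less of the genome, so the counts at KLF genes were read against the same counts over all genes. Of 10 markers of PPs, 9 had a promoter peak in every library (PTF1A had none in any), whereas 0 of 4 endocrine and 0 of 3 mesenchymal markers had one. CDX2, LIN28A and APOA1 were the markers of other cell types with a promoter peak in every library. With 2 libraries per group, the exact permutation test has 6 assignments and cannot give a two-sided p under 0.333. So a difference is reported as higher or lower when both I-BET151 libraries lay above or below both DMSO libraries, and every such difference has p = 0.333 in the exact test.

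H3K27ac was present at most KLF genes in PPs and its covered length overlapped between DMSO and I-BET151 at most of them, with KLF7 and KLF16 separated. Summit reads of the strongest promoter peak separated at more genes than covered length did, as given further on. A promoter peak was called in every library at 7 of the 10 genes, against 46.3% of all protein-coding genes. KLF2 and KLF4 had no peak in their windows in any library, as was the case for 24.1% of all genes, and KLF11 had a single weak peak in DMSO replicate 2. The length covered by peaks overlapped between the groups at 6 of the 8 genes with any peak. It was higher in I-BET151 at 1 (KLF7), where 12.5% of 15184 genes were higher, and lower at 1 (KLF16), where 44.4% were lower. The median difference of I-BET151 minus DMSO was −0.06 kb over the 8 KLF genes and −0.09 kb over all 15184.

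**Figure D1:**
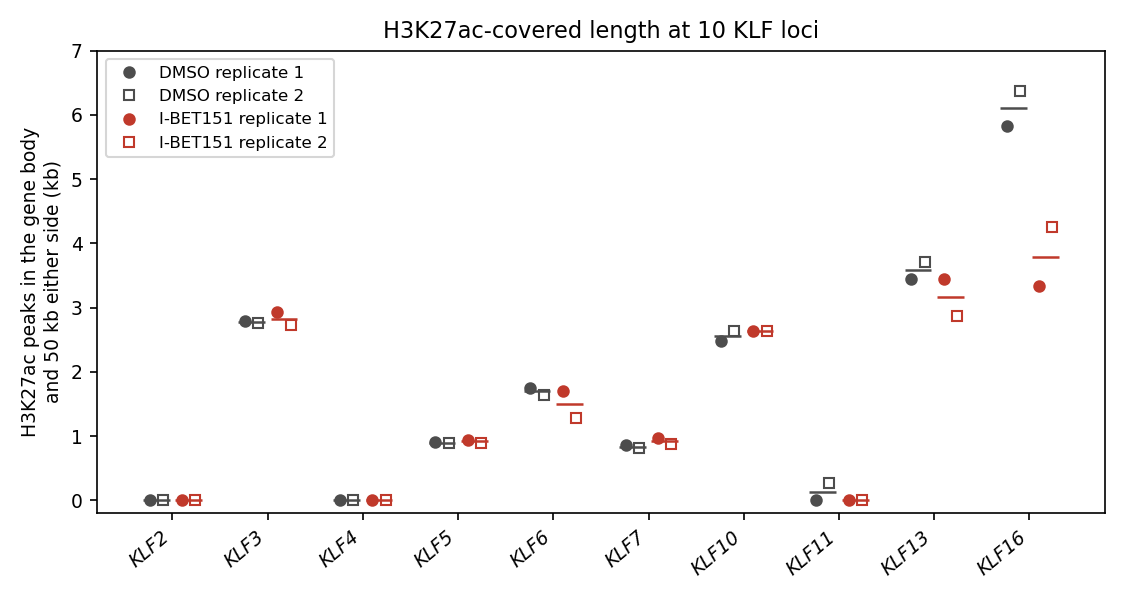
Length covered by H3K27ac peaks in the gene body and 50 kb either side (kb, y axis) at the 10 KLF genes (x axis). Grey symbols are the 2 DMSO libraries, red symbols the 2 I-BET151 libraries, filled circles replicate 1, open squares replicate 2, and bars the group means. KLF16 is the gene with separated groups and a large difference, from 5.84 and 6.38 kb to 3.33 and 4.26 kb.

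Within 3 kb of the genes' own starts, covered length was higher at 1 gene (KLF7) and lower at 2 (KLF13 and KLF16) of 8, against 14.2% higher and 36.7% lower of 11122 genes. Away from all protein-coding starts, only 4 of the KLF windows had any peak, and 2 of these were lower (KLF6 and KLF16) and 0 higher, against 41.3% lower and 14.2% higher of 4207 genes. The number of peaks was lower at 2 genes (KLF13 and KLF16) and higher at 0 of 8, against 16.5% and 4.32% of 15184 genes. With so few members, none of these counts sets the KLF genes apart from all genes.

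Of the activator-type genes, KLF5, KLF6 and KLF7 had a promoter peak in every library, as did KLF3, KLF10, KLF13 and KLF16 of the repressor-type genes. KLF5, a factor of proliferating epithelia, had 1 peak, which covered 0.91 and 0.89 kb in the DMSO libraries and 0.93 and 0.90 kb in the I-BET151 libraries. The peak lay 4.54 kb downstream of the first KLF5 start, and its summit was 514 bp from the inner annotated start, so the outer promoter had no peak. The fold at its summit was 10.9 and 9.83 in DMSO and 9.09 and 10.2 in I-BET151, and these overlap. Summit reads were 46.0 and 42.5 RPM in DMSO and 47.6 and 53.2 in I-BET151, so they were higher in both I-BET151 libraries, by 6.18 RPM on average.

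KLF6, a growth-regulating factor induced by injury, had a pair of promoter peaks on either side of its start and a distal peak 40.8 kb upstream (chr10:3825896-3826328, hg38, intergenic). Both promoter peaks lie within 1 kb of the start of a noncoding gene, ENSG00000288755, and cannot be assigned to KLF6 alone. The upstream promoter peak, whose sequence is shown, covered 591 and 526 bp with DMSO and 612 and 540 bp with I-BET151, and its summit reads were 42.8 and 37.5 RPM in DMSO and 47.2 and 45.8 in I-BET151. The groups overlap in width and do not in summit reads. The peak over the first exon had 52.9 and 43.7 RPM in DMSO and 52.9 and 51.0 in I-BET151, which overlap. The distal peak covered 409 and 379 bp in DMSO and 311 bp in I-BET151 replicate 1, and it was not called in I-BET151 replicate 2. Its summit reads were 10.9 and 10.2 RPM in DMSO and 5.03 in I-BET151 replicate 1. It is the only KLF6 region that was lower in both I-BET151 libraries, and the difference of −0.24 kb away from promoters is that peak alone. Without I-BET151 replicate 2 it was −0.08 kb.

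KLF7, a factor known from neuronal development, was the member with higher covered length, summit reads and fold in both I-BET151 libraries. Its single peak (chr2:207166230-207167195, hg38) lay 7.21 kb downstream of the outermost start and 204 bp from the nearest of its 10 annotated starts, beside the start of the noncoding gene MYOSLID, so the peak cannot be assigned to KLF7 alone. It covered 0.86 and 0.81 kb with DMSO and 0.97 and 0.88 kb with I-BET151 (0.833 ± 0.033 against 0.925 ± 0.059 kb, SD, n = 2 each, exact permutation p = 0.333), and the difference of 0.09 kb was 0.05 kb without I-BET151 replicate 1. Summit reads were 50.5 and 42.3 RPM in DMSO and 59.2 and 59.1 in I-BET151. The exact Poisson 95% intervals were 45.7 to 55.7 and 38.3 to 46.5 in DMSO and 53.9 to 64.8 and 53.9 to 64.7 in I-BET151, so counting error alone lets DMSO replicate 1 meet both I-BET151 libraries. Such intervals cover counting error only.

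The fold at the KLF7 summit was 7.02 and 6.49 in DMSO and 21.0 and 7.93 in I-BET151. The value of 21.0 stands apart, and in that library the input level at the summit was 26.7-fold the genome mean, against 68.6-fold and 68.0-fold in DMSO and 77.3-fold in I-BET151 replicate 2. Input level here is the background solved from the fold and −log10 p of a peak, not a count of input reads. The lowest level in a list was taken as the genome mean. The ChIP reads at the summit were 402 and 416 in DMSO and 459 and 475 in I-BET151. Input was itself high at the strongest promoter peaks of the 7 genes, 22.2-fold to 77.3-fold the genome mean, and its median over all peaks was 37.8-fold to 42.6-fold, so fold and RPM can order the libraries differently. The mean difference in KLF7 fold was 7.69 with both I-BET151 libraries and 1.17 without I-BET151 replicate 1. Of the 7 genes with a promoter peak in every library, KLF7 was the only one with a higher fold of its strongest promoter peak in both I-BET151 libraries (24.9% of 9263 genes were higher), and 0 were lower (15.7%). For KLF13 this measure sets its exon peak in DMSO replicate 1 beside its upstream peak in the other libraries. Taken alone, the KLF13 exon peak had a lower fold in both I-BET151 libraries.

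**Figure D2:**
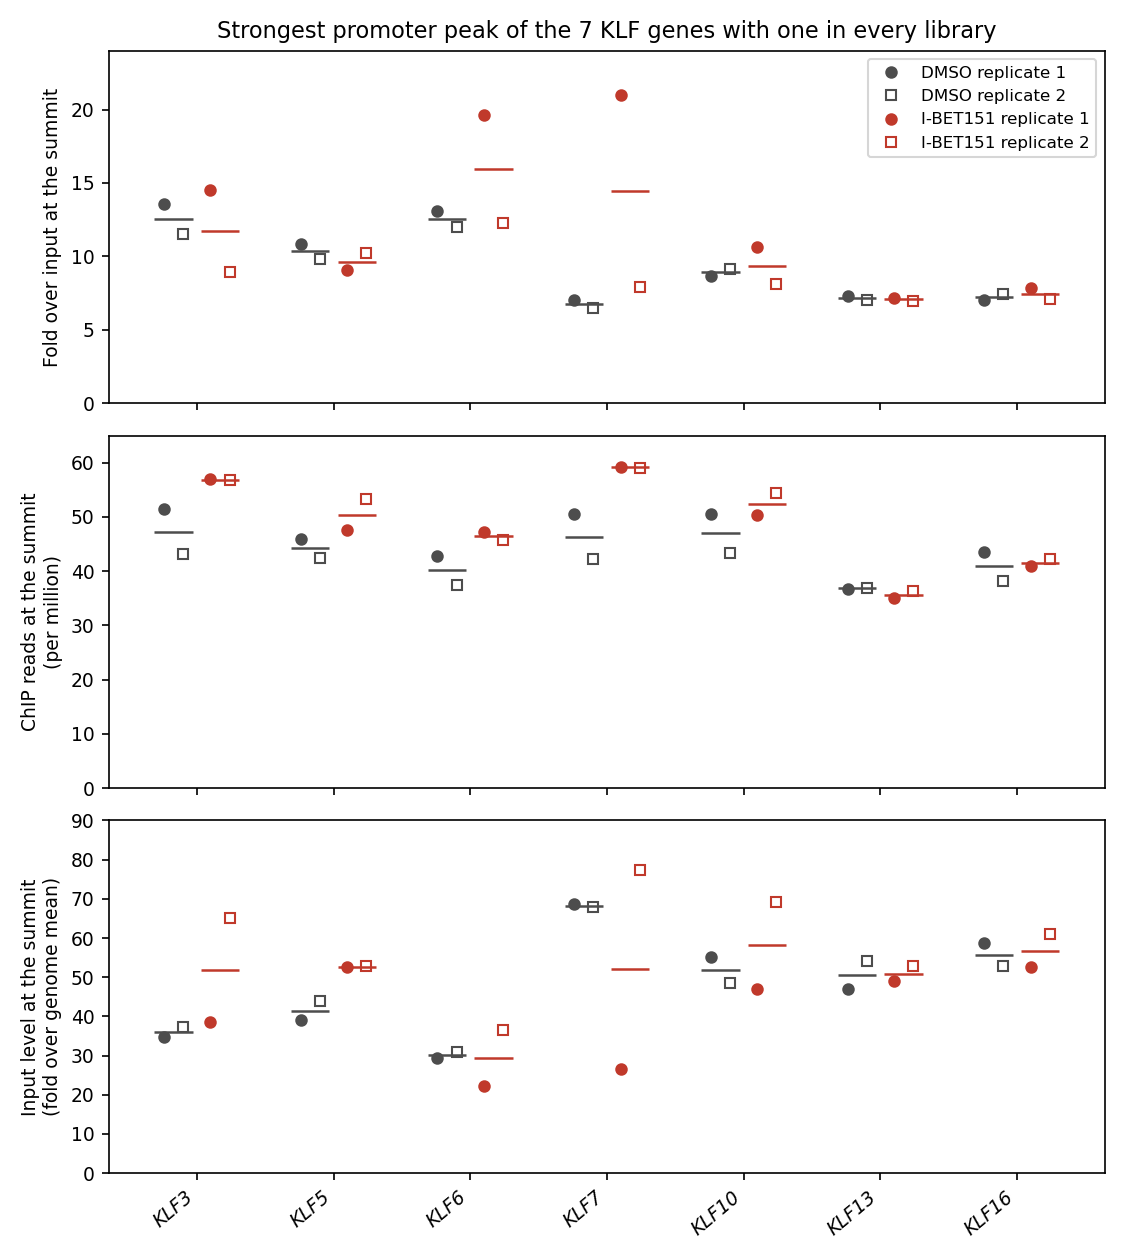
Fold over input (top), RPM (middle) and input level as fold over the genome mean (bottom) at the summit of the strongest promoter peak of 7 KLF genes. Symbols and bars are as in the plot of covered length. KLF7 in I-BET151 replicate 1 has a fold of 21.0 together with an input level of 26.7, the lowest of the 4 libraries.

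KLF3, a repressor that works with CTBP proteins, had a broad promoter peak and an intronic peak. The promoter peak, whose sequence is shown, covered 2.37 and 2.32 kb with DMSO and 2.45 and 2.32 kb with I-BET151, at the 96.2nd percentile of genes with a promoter peak in DMSO and the 97.1st in I-BET151. Its fold was 13.6 and 11.6 in DMSO and 14.5 and 8.96 in I-BET151, which overlap. Summit reads were 51.5 and 43.1 RPM in DMSO and 57.0 and 56.7 in I-BET151, higher in both I-BET151 libraries. The intronic peak (chr4:38672434-38672950, hg38) lay 8.47 kb downstream of the start and was among the weaker KLF peaks. Its summit reads were 9.80 and 10.2 RPM in DMSO and 17.8 and 12.8 in I-BET151, a ratio of 1.53, and its fold was 17.0 and 10.1 in DMSO and 18.3 and 20.1 in I-BET151. Both measures were higher in both I-BET151 libraries while its width overlapped. This was the largest relative increase in summit reads among the 15 KLF-window regions called in every library. It rested on 78 and 100 reads in DMSO and 138 and 103 in I-BET151. The counting-error intervals were 7.7 to 12.2 and 8.3 to 12.4 RPM in DMSO. That of I-BET151 replicate 2, 10.5 to 15.5 RPM, overlapped both DMSO intervals, and that of I-BET151 replicate 1, 14.9 to 21.0 RPM, overlapped neither.

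Among the SIN3A-recruiting members, KLF10 and KLF11 gave contrasting pictures. KLF10, a gene first described as induced by TGF-β, had a pair of promoter peaks that together covered 2.48 and 2.64 kb with DMSO and 2.64 and 2.64 kb with I-BET151. The groups overlap by 1 bp or less on that scale. The peak over its first intron had 50.6 and 43.4 RPM in DMSO and 50.4 and 54.4 in I-BET151, which overlap. The upstream peak, 688 bp from the start and within 1 kb of the start of the noncoding gene ENSG00000283959, was weaker, with 21.4 and 19.5 RPM in DMSO and 21.7 and 24.5 in I-BET151, and its fold was 3.47 and 4.11 in DMSO and 5.27 and 6.34 in I-BET151. Both were higher in I-BET151, while its input level, solved from fold and −log10 p, was 58.8-fold and 49.1-fold the genome mean in DMSO and 40.9-fold and 38.5-fold in I-BET151.

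KLF11, which acts on the insulin promoter, had a peak of 269 bp in DMSO replicate 2 and none in the other 3 libraries. That peak had a fold of 2.21 and ranked at 98.7% of its list, near the calling threshold. DMSO replicate 2 was also the deepest library, with 9.84 M ChIP reads. The absence of a peak means that none passed the threshold, and H3K27ac below it was not detectable in these lists. The same holds for KLF2, a factor of endothelial cells, and KLF4, one of the factors used to reprogram cells to pluripotency.

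KLF13, known from lymphocytes and heart, had lower summit reads at its promoter peaks in both I-BET151 libraries. The peak over its first exon (chr15:31326801-31328793, hg38) had summit reads of 36.7 and 32.7 RPM in DMSO and 23.6 and 30.9 in I-BET151, a ratio of 0.78, and a fold of 7.30 and 6.25 in DMSO and 4.77 and 4.90 in I-BET151. The peak upstream of the start (chr15:31325498-31326494, hg38) had 44.5 and 37.0 RPM in DMSO and 35.1 and 36.3 in I-BET151, also lower, while its fold of 4.70, 7.05, 7.17 and 6.99 overlapped. Both were slightly narrower. Together the promoter peaks covered 2.89 and 2.98 kb with DMSO and 2.83 and 2.88 kb with I-BET151, a difference of −0.08 kb that was no longer separated within 1 kb of the starts. It was −0.04 kb without DMSO replicate 2 and −0.13 kb without DMSO replicate 1.

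The KLF13 introns and flank carried scattered weak peaks. The intronic peak 71.7 kb downstream of the start (chr15:31398336-31398670, hg38), whose sequence is shown, covered 276 and 335 bp in DMSO, with 11.1 and 8.94 RPM, and was called in neither I-BET151 library. The other peaks, at −29.2, 26.9 and 65.2 kb, were each called in 1 library, 1 of them in I-BET151 replicate 1. Peak numbers were 4 and 4 in DMSO and 3 and 2 in I-BET151. Covered length over the whole window, 3.44 and 3.72 kb with DMSO and 3.45 and 2.88 kb with I-BET151, overlapped between the groups.

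KLF16 had the largest difference of the 10 genes. Peaks covered 5.84 and 6.38 kb of its window with DMSO and 3.33 and 4.26 kb with I-BET151 (6.11 ± 0.38 against 3.80 ± 0.66 kb, SD, n = 2 each, exact permutation p = 0.333), and peak numbers were 8 and 9 in DMSO and 5 and 7 in I-BET151, a mean difference of −2.5 that was −1.5 without I-BET151 replicate 1. The window is gene-dense and also holds ATP8B3, REXO1, ABHD17A, SCAMP4 and ADAT3. Of the difference of −2.31 kb, −0.22 kb lay at the KLF16 starts, −1.08 kb away from all protein-coding starts and −1.01 kb at the starts of the other genes. With only 10 kb on either side the difference was −1.25 kb.

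At KLF16 itself the peaks over the gene differed and the peak upstream of it did not separate. The peak at the start (chr19:1862948-1863628, hg38, over the first coding exon) covered 637 and 681 bp with DMSO and 447 and 484 bp with I-BET151. Its summit reads were 31.4 (95% interval 27.6 to 35.5) and 30.1 (26.8 to 33.7) RPM in DMSO and 19.1 (16.1 to 22.4) and 23.3 (20.1 to 26.8) in I-BET151, and its fold was 5.32 and 6.77 in DMSO and 3.68 and 4.60 in I-BET151. Width, reads and fold were all lower in both I-BET151 libraries, each with a ratio of 0.69 to 0.71. The intronic peak 5.90 kb into the gene (chr19:1856981-1857893, hg38), whose sequence is shown, covered 886 and 901 bp in DMSO with 25.1 and 26.5 RPM, and it was called in neither I-BET151 library. In DMSO it ranked at 35.3 and 31.8% of the lists, the best rank of the 3 lost KLF regions. The upstream peak (chr19:1864157-1865381, hg38) had 43.6 and 38.2 RPM in DMSO and 41.0 and 42.2 in I-BET151, which overlap.

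In the KLF16 flanks, the peak at REXO1 had 52.4 and 44.9 RPM in DMSO and 54.3 and 55.0 in I-BET151, higher in both, whereas those at ABHD17A and ADAT3 were lower. At ABHD17A they were 24.8 and 25.9 in DMSO and 13.5 and 16.7 in I-BET151, a ratio of 0.60. The fold at ABHD17A was 2.93 and 10.9 in DMSO and 2.01 and 3.79 in I-BET151, which overlap. At REXO1 the fold overlapped too, and at the ADAT3 peak called in every library it was lower in both I-BET151 libraries. A second peak at ADAT3 and SCAMP4 (chr19:1907553-1908361, hg38) covered 766 and 751 bp in DMSO and was called in neither I-BET151 library.

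**Figure D3:**
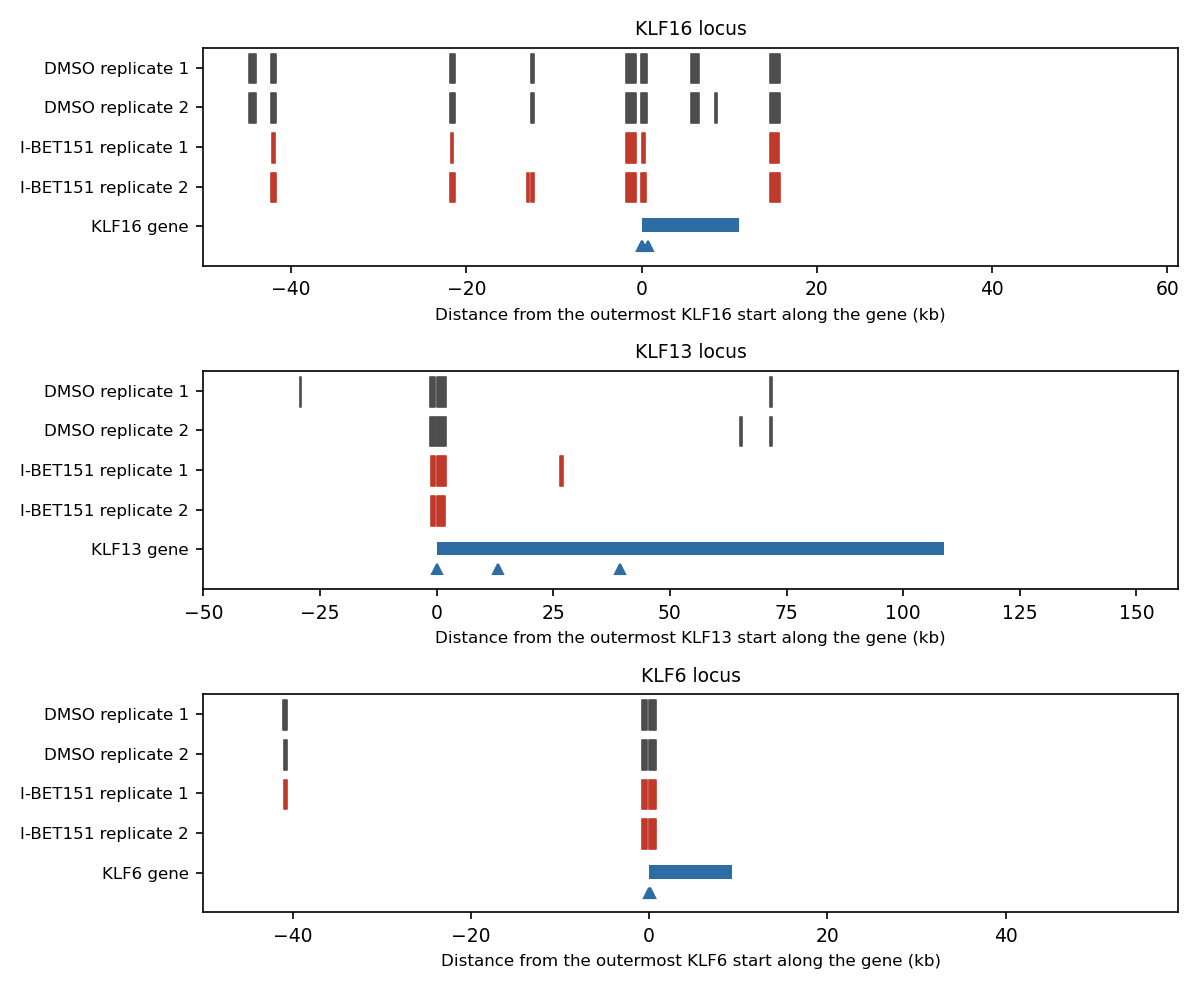
H3K27ac peaks (bars, to scale) in each library at KLF16, KLF13 and KLF6 by distance from the outermost start along the gene (kb, x axis). Grey rows are DMSO, red rows I-BET151, blue bars the genes and triangles their annotated starts. Peaks at 5.90 and −44.2 kb of KLF16 and at 71.7 kb of KLF13 are in both DMSO rows and in neither I-BET151 row, and the −40.8 kb peak of KLF6 is missing in I-BET151 replicate 2.

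Over the 10 windows, peaks that shared 1 bp or more were merged across libraries into 26 regions, 12 at the genes' own promoters, 4 at promoters of other genes and 10 away from promoters. Of these, 15 were called in every library, 0 were gained (both I-BET151 lists, no DMSO list) and 3 were lost (the reverse, 11.5%), and 8 were mixed. Over the 15752 regions of the series, 2.81% were gained and 8.6% lost. The 3 lost regions were those of KLF13 and KLF16 described above. At the 15 regions called in every library, width was higher in 2 (KLF7 and the KLF10 intronic peak) and lower in 4 (both KLF13 promoter peaks, KLF16 and ABHD17A), against 16.0% higher and 33.3% lower of 10317 regions.

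RPM separated more of the 15 regions than width did. It was higher in 7 (both KLF3 peaks, KLF5, the upstream KLF6 peak, KLF7, the upstream KLF10 peak and REXO1) and lower in 5 (both KLF13 promoter peaks, KLF16 at its start, ABHD17A and ADAT3), against 29.8% higher and 31.1% lower of 9825 regions. Among the strongest promoter peaks of the 7 genes, RPM was higher at 4 (KLF3, KLF5, KLF6 and KLF7) and lower at 1 (KLF13), against 26.3% and 30.4% of 8851 genes. At each of these genes the 95% intervals for counting error of some DMSO and I-BET151 libraries overlap. For KLF13 the RPM and the fold of the strongest promoter peak set different peaks side by side. The exon peak ranked best in DMSO replicate 1 and the upstream peak in the other 3 libraries.

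**Figure D4:**
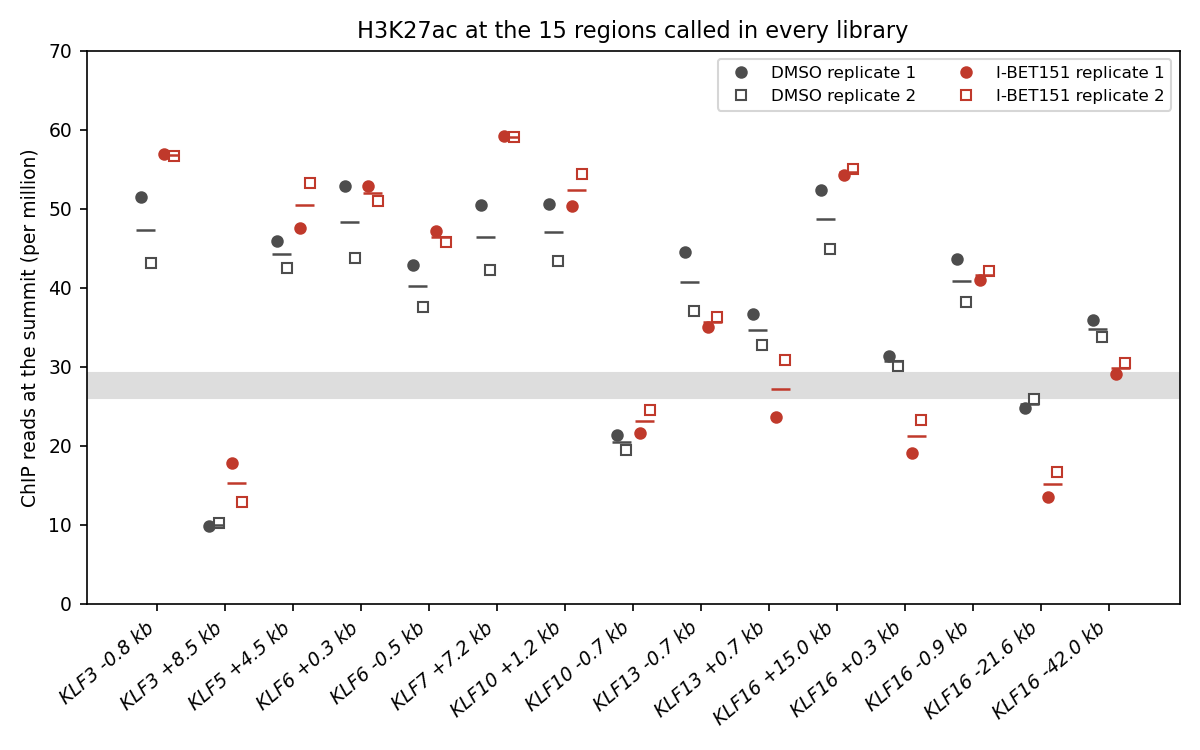
RPM at the summit (y axis) of the 15 KLF-window regions called in every library (x axis, gene and distance from its outermost start). Symbols and bars are as in the plot of covered length, and the grey band spans the 4 libraries' medians over all 10317 such regions, 26.0 to 29.1. The tall peaks of KLF3, KLF5 and KLF7 lie above the band and higher in I-BET151, and those over KLF13 and at the KLF16 start lie lower in I-BET151.

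Height has an upper limit in these lists. Duplicates were removed, so at most 1 read per position and strand can be piled up, and the tallest peak of each library held 91.0 to 99.2% of the reads that this allows. The KLF7 summit reached 73.9 and 84.2% of that limit in DMSO and 90.4 and 95.4% in I-BET151, and the KLF3 promoter summit 75.4 and 85.8% in DMSO and 87.0 and 91.6% in I-BET151. As a percentage of the limit, a scale chosen after the data had been seen, KLF7 and KLF3 were still higher in both I-BET151 libraries. KLF5, KLF6 and the peak at REXO1 overlapped on that scale. RPM at tall peaks was lowest in the deepest library, DMSO replicate 2, at KLF3, KLF5, KLF6 and KLF7. The limit took the length of the shortest peak in a list as the fragment length. In DMSO replicate 2 it was 494 reads, over 9.84 M ChIP reads. In the other libraries it was 498 to 544 reads, over 7.76 to 8.04 M. So the limit in RPM was lowest in DMSO replicate 2. Both I-BET151 values of the KLF3 promoter peak, KLF7, REXO1, the KLF6 exon peak and the KLF10 intron peak lay above it. The KLF5 value of I-BET151 replicate 2 did too, so DMSO replicate 2 could not have reached any of these. The part of the limit in these differences was not tested.

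By mean summit reads of the strongest promoter peak, the order in DMSO was KLF3 (47.3 ± 5.95 RPM, SD, n = 2), KLF10 (47.0 ± 5.11), KLF7 (46.4 ± 5.81), KLF5 (44.2 ± 2.47), KLF16 (40.9 ± 3.80), KLF6 (40.2 ± 3.77) and KLF13 (36.8 ± 0.22). Neighbours in that order differed by less than the sum of their SDs. In I-BET151 the order was KLF7 (59.1 ± 0.05), KLF3 (56.9 ± 0.18), KLF10 (52.4 ± 2.80), KLF5 (50.4 ± 4.02), KLF6 (46.5 ± 0.99), KLF16 (41.6 ± 0.84) and KLF13 (35.7 ± 0.89). KLF10 and KLF5, and KLF5 and KLF6, differed there by less than the sum of their SDs. The SDs of KLF7 and KLF3 there lie far below counting error. Its 95% intervals were 53.9 to 64.8 and 53.9 to 64.7 RPM for KLF7 and 51.8 to 62.5 and 51.6 to 62.2 for KLF3. Such intervals overlapped between all neighbours in the I-BET151 order, so that order is not resolved. All 7 lay above the median gene with a promoter peak, which had 30.4 RPM in DMSO and 29.1 in I-BET151, from KLF13 at the 72.6th percentile in DMSO and the 68.3rd in I-BET151 to KLF7 at the 99.8th in I-BET151. This order rests on 1 peak per gene and library, chosen by its −log10 p, and the KLF13 SD in DMSO is between different peaks. With other promoter peaks it changes: the upstream KLF13 peak alone had a mean of 40.7 RPM in DMSO and the KLF6 exon peak 48.3 RPM.

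Other genes of the family and its partners were taken from fixed lists. Of 17 other KLF and SP genes, 7 had no peak in any library (KLF8, KLF14, KLF17, KLF18, SP5, SP8 and SP9), and of the 10 tested for covered length 2 (20.0%) were higher and 2 (20.0%) lower in I-BET151, against 12.5% and 44.4% of all genes. The fold of the strongest promoter peak was higher at 3 of 6 (KLF12, SP1 and SP2) and lower at 0, against 24.9% and 15.7%. KLF12, a repressor that binds CTBP1 like KLF3, covered 1.33 and 1.71 kb with DMSO and 2.32 and 2.18 kb with I-BET151. SP4, a neuronal SP factor, covered 0.62 and 0.66 kb with DMSO and 1.23 and 0.93 kb with I-BET151. KLF15, a regulator of gluconeogenesis, covered 0.32 and 0.82 kb in DMSO and had no peak in I-BET151. KLF1, the erythroid factor, covered 0.47 and 0.86 kb with DMSO and 0.41 and 0.44 kb with I-BET151, none of it at its own promoter. The median difference of the 10 was −0.03 kb.

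Of 12 cofactors and regulators of KLF proteins, all had a promoter peak in every library. Covered length was higher in I-BET151 at 2 (16.7%), the corepressor gene CTBP2 and the acetyltransferase gene KAT2B, and lower at 4 (33.3%), against 12.5% and 44.4% of all genes. Other measures gave other counts: covered length at promoters was higher at 4 and lower at 1 of the 12, against 14.2% and 36.7% of all genes, and the fold of the strongest promoter peak was higher at 5 and lower at 2, against 24.9% and 15.7%. CTBP2 covered 3.61 and 3.55 kb with DMSO and 4.07 and 4.02 kb with I-BET151, and KAT2B 1.03 and 1.37 kb with DMSO and 1.48 and 1.57 kb with I-BET151. SIN3A, the corepressor bound by KLF10, KLF11, KLF13 and KLF16, covered 4.12 and 4.46 kb with DMSO and 3.19 and 2.96 kb with I-BET151. The deacetylase gene HDAC1 (2.51 ± 0.01 against 2.09 ± 0.15 kb, SD, n = 2 each), the chromatin remodeller gene SMARCA4 (4.09 ± 0.10 against 3.50 ± 0.43 kb) and the ubiquitin ligase gene WWP1 (1.68 ± 0.07 against 1.45 ± 0.13 kb) were also lower. These lengths are of the whole window. Within 3 kb of their own starts, HDAC1, SMARCA4 and WWP1 overlapped between the groups, and SIN3A was the gene that was lower. WWP1 was nevertheless lower in the fold of its strongest promoter peak, whereas HDAC1 and SMARCA4 overlapped in it. The median difference in covered length over the 12 genes was −0.0005 kb.

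KLF2, KLF4, KLF6 and KLF10 are known as rapidly induced genes, and 13 immediate early genes were set beside them. EGR4 had no peak in any library. Of the other 12, 7 (58.3%) were lower and 1 (IER3, 8.33%) higher in covered length, against 44.4% and 12.5% of all genes, with a median difference of −0.55 kb against −0.06 kb for the KLF genes and −0.09 kb for all genes. JUNB, an AP-1 subunit, covered 5.33 and 6.71 kb with DMSO and 1.79 and 2.04 kb with I-BET151, and EGR1, a zinc-finger factor, covered 2.46 and 2.38 kb with DMSO and 1.55 and 1.53 kb with I-BET151. The fold of the strongest promoter peak went differently: of the 7 genes with one in every library, 0 were lower and 1 was higher, against 15.7% and 24.9% of all genes. That gene was EGR1, with a fold of 4.51 and 4.92 in DMSO and 5.13 and 6.88 in I-BET151. At promoters covered length was lower at 8 of 11 and higher at 0, against 36.7% and 14.2%. The AP-1 genes FOSL1 (6.45 ± 0.15 against 4.70 ± 0.57 kb, SD, n = 2 each), FOSB (5.35 ± 0.49 against 4.40 ± 0.64 kb) and JUN (2.63 ± 0.01 against 1.93 ± 0.31 kb), the stress gene ATF3 (1.83 ± 0.05 against 0.90 ± 0.37 kb) and IER5 (2.14 ± 0.06 against 1.73 ± 0.06 kb) were lower as well. IER3 covered 3.15 and 3.18 kb with DMSO and 3.96 and 3.19 kb with I-BET151, so its groups are separated by 0.01 kb. KLF6 and KLF10 overlapped between the groups, and the difference between these lists was not tested.

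**Figure D5:**
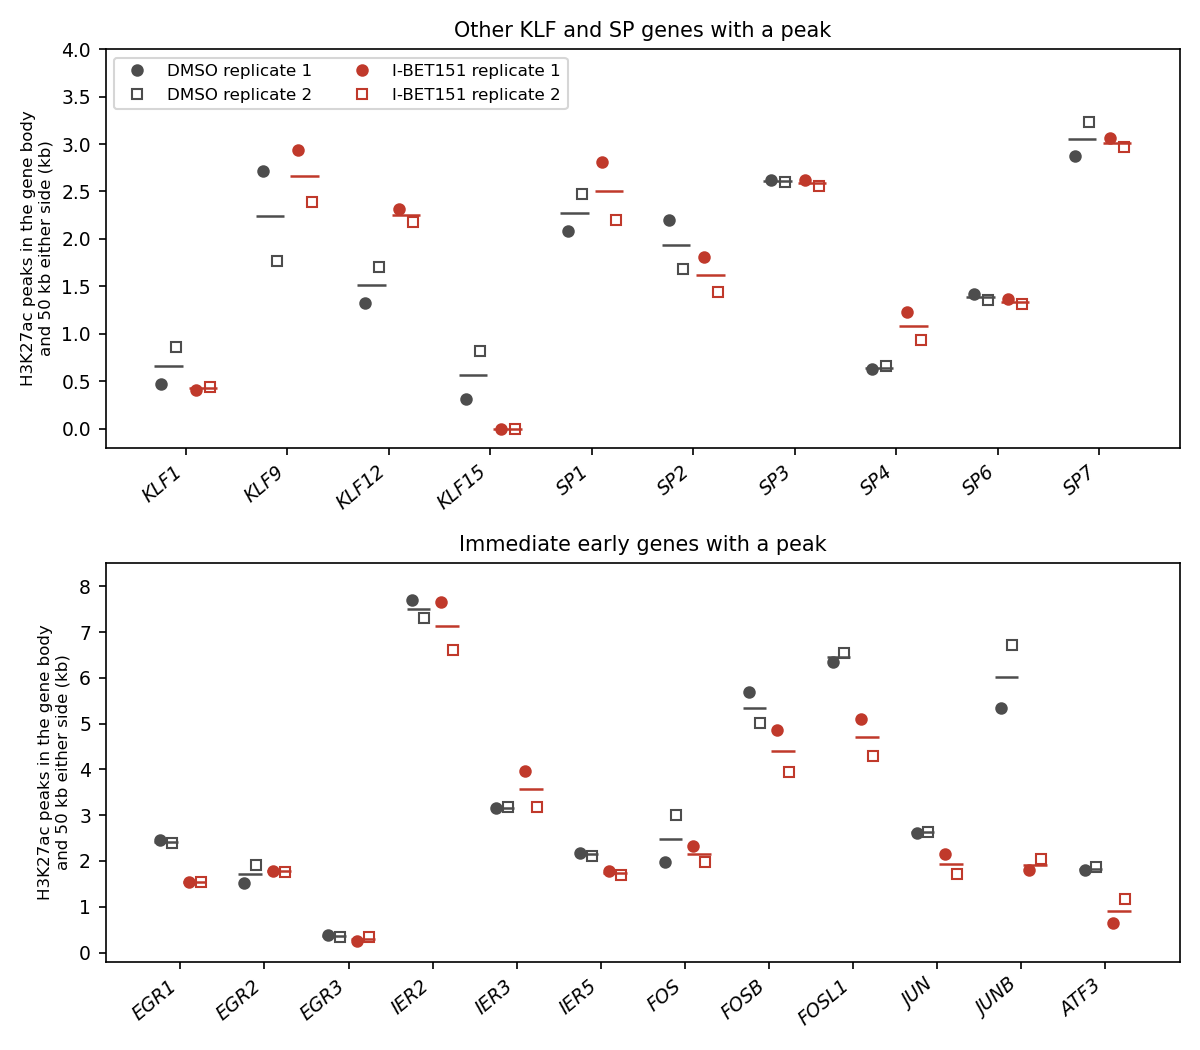
Length covered by H3K27ac peaks in the gene body and 50 kb either side (kb, y axis) at other KLF and SP genes (top) and immediate early genes (bottom) that had a peak in any library. Symbols and bars are as in the plot of covered length of the 10 KLF genes. KLF12 and SP4 lie higher and KLF15 at 0 in I-BET151, and JUNB lies at 1.79 and 2.04 kb in I-BET151 against 5.33 and 6.71 kb in DMSO.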

How the data were processed

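H3K27ac ChIP-seq was analysed in 4 libraries of PPs, 2 with DMSO and 2 with I-BET151, and groups came from the library labels. Per the study's methods, reads were aligned by the authors with Bowtie2 (2.2.5, hg38), duplicates were removed, and MACS2 (2.1.2) called peaks in each library. A deposited list holds peak intervals and summits, a score that was not used here, the fold over input as a ratio, and −log10 of the p-value and q-value, as written by the authors' peak caller. They hold no read counts. ChIP reads and the input level at each summit were therefore solved from the fold and −log10 p. This resolved 98.0 to 98.9% of peaks to a single whole number of reads, within 0.002 after scaling to input depth. On 4000 simulated peaks 98.9% were resolved, 100% of them correctly. These were simulated from the same formula, so they check the solving and cannot show that the deposited values follow it. The input level is the background behind those values, and the lowest level in a list was taken as the genome mean. Depth was worked out from that mean, and intervals cover counting error only.

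Genes and starts came from GENCODE release 44. Summits were within 3 kb of a start for 79.8 to 84.2% of peaks, and for 10.9 to 11.6% after a shift of 1 Mb. Covered length is the length of merged peaks in the gene body and 50 kb either side, and promoters are 3 kb on either side of a protein-coding start. The strongest promoter peak is the one with the highest −log10 p. Peaks sharing at least 1 bp were merged into regions. Each value was compared by whether the groups overlap, with an exact two-sided permutation test. All 10 genes are named, as are related genes whose covered length did not overlap between groups and every lost region. Genes of the lists with no peak, and SP1, SP2 and EGR1 for their fold, were named after their values were seen. The genes and lists were chosen with earlier results of these data known. Stricter peaks, lists of equal length, other windows, promoter widths and region overlaps, a replicate block and each library left out were tried as alternatives. Promoter sequences are RefSeq's, and 8 of the 10 genes matched. Python 3.11.15 with pysam 0.24.0 was used. The input libraries were not analysed on their own.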

Additional observations from a re-analysis of the deposited data

How the results depend on the processing

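The lists depend on a threshold, so depth decides whether a weak peak is called. With −log10 q of at least 5 (11833 to 13628 peaks per library), the counts at KLF genes stayed within 1.5 times, and 12.4% of all genes were higher and 43.9% lower in covered length. With the 12312 top-ranked peaks of every list, 15.4% of all genes were higher and 38.3% lower, and lower peak number was left at 1 KLF gene. Both changed the median difference in covered length to 0.02 kb. KLF7 was higher and KLF16 lower in covered length with both of these and with 10 and 100 kb either side. For KLF7, however, the single peak lies in the gene body and ranked within the top 15.7% of every list. Stricter peaks, lists of equal length and the 10 kb window could therefore not change its value. With 100 kb either side the median difference was −0.39 kb, 4 of 9 genes were lower, and 1 region was gained and 5 lost. Shares over all genes were not worked out for other windows, promoter widths, percentages of the limit, libraries left out or the replicate block. Counts of KLF genes and regions under those settings therefore cannot be set against all genes. With 10 kb, peak number was lower at 1 gene. With promoters of 1 kb, covered length at promoters was lower at 1 gene, KLF13 having overlapped. For the strongest promoter peak, RPM in place of fold gave 4 genes higher and 1 lower, and reads as a percentage of the limit, added after seeing the data, gave 2 higher and 0 lower.

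Leaving out 1 library at a time gave 1 to 4 genes higher and 1 to 4 lower in covered length, with a median difference of −0.09 to 0.02 kb, 1 to 5 higher at promoters, 0 to 1 higher and 2 to 4 lower away from them, and 0 to 1 regions gained and 4 to 6 lost. The fold of the strongest promoter peak was then higher at 1 to 5 genes and lower at 0 to 3, with a median difference of −0.19 to 1.75, the highest without I-BET151 replicate 2. Separated groups stay separated when a library is left out or same-numbered libraries are paired, so these settings can add calls but not end one. The only calls of single genes that ended under another alternative were the promoter length of KLF13 with promoters of 1 kb, and its peak number with lists of equal length and with 10 kb either side.

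Same-numbered libraries share only a number. The correlation of their deviations was 0.08 over region widths and 0.11 over covered lengths, for a single contrast of replicate 1 with 2. With a replicate block, that is both pairs differing in the same direction, 2 genes were higher and 2 lower in covered length, 4 higher at promoters, and 2 higher and 1 lower in fold of the strongest peak. The lost regions were the same 3 in number.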
